A study of Mus musculus with 6 samples.

Results

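Tbx3 and 8 further regulators of hormone-sensing luminal cells of the mammary gland were read in sorted CD45- tumor cells from RANK+/+ and RANK-/- transplants. The 9 genes were Tbx3, Tbx2, Esr1, Pgr, Foxa1, Gata3, Cited1, Greb1 and Wnt4. Their probes were found by matching the transcript accession of every gene probe on the array to a RefSeq symbol. This gave 14 of 55681 gene probes. All 9 genes passed the filter on dim probes, which left 22498 genes and transcripts without a symbol (14672 with one). The set was chosen by measured values, namely the ratios of RANK-/- over RANK+/+ in these 3 pairs, in which Tbx3 had been called by a rank product. All ratios, signals and calls of the 9 genes below are therefore a description and are not read as tests.

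In the mammary gland only some luminal cells carry the receptors for estrogen and progesterone. These hormone-sensing cells pass the signal on to neighboring cells through secreted factors such as Wnt4, amphiregulin and RANK ligand, the ligand of RANK. Their identity is held by transcription factors. Foxa1 opens chromatin for the estrogen receptor, Gata3 keeps luminal cells differentiated, and Tbx3 and its close relative Tbx2 are T-box repressors needed for mammary development. Greb1 and Pgr are textbook targets of the estrogen receptor, and Cited1 is a coactivator that works with it.

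The cells came from late carcinomas of MMTV-PyMT mice, in which the mouse mammary tumor virus promoter drives the polyomavirus middle T oncogene in the mammary epithelium. Donor mice were RANK+/+ or RANK-/- in all their cells, on the C57BL/6 background. RANK, the receptor for RANK ligand, is the product of Tnfrsf11a. Tumor cells of either genotype were transplanted orthotopically into syngeneic C57BL/6 females, so that stroma and leukocytes of the resulting tumors could come from a host with intact RANK. Tumors were dissociated and live cells without the leukocyte protein CD45 were sorted, which enriches for tumor cells. The design text calls the RNAs of a genotype biological replicates, but no label ties an RNA to a tumor, an animal or an age, so the spread between pairs may be partly technical.

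RNA of one genotype was set against RNA of the other in 3 pairs. A pair was read on 2 arrays, A and B, as technical replicates, which gave 6 arrays with a Cy5 and a Cy3 channel. RANK-/- RNA was in Cy5 in pair 1 and in Cy3 in pairs 2 and 3, so pair 1 differed from the others in dye as well. A level is the normalized log2 signal of one channel, averaged over arrays A and B. A ratio is the log2 ratio of the RANK-/- over the RANK+/+ channel, given as the mean ± SD of 3 pairs. All 6 arrays had 51.9% to 58.8% of their gene probes well above background in either channel. Ratios of different pairs were weakly related across all genes, with r of -0.279 for pairs 1 and 2, 0.178 for pairs 1 and 3 and -0.0792 for pairs 2 and 3.

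Tnfrsf11a, the gene deleted in RANK-/- mice, read higher where the label says RANK-/-, which goes against that label. Its levels there were 13.55, 13.36 and 13.07 in pairs 1, 2 and 3, against 11.52, 12.21 and 11.32 in the channel labeled RANK+/+. The ratios were 2.03, 1.15 and 1.76. Whether its probe lies inside the deleted part of the gene is not given in the sources used here, and a probe outside that part would check nothing. Signs in the gene list of the study also ran opposite to the signs used here, and that list does not name its numerator. The study's methods describe array ratios as condition over control, without naming the control genotype. If RANK+/+ was that control, the list also goes against the channel labels. Every direction below rests on the channel labels, and all of them would turn together if the labels were exchanged.

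Promoters were available for 7 of the 9 genes from RefSeq (GRCm38.p6), as 300 bases each, 250 before and 50 after a transcription start. Tbx3 and Tbx2 had no entry. Of the 11 promoters of these 7 genes, 4 are shown. Foxa1 and Pgr had the lowest mean ratios of the 9 genes, and Cited1 and Wnt4 had the most similar ratios over the 3 pairs. Capitals mark the bases that match a searched motif.

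Foxa1, chr12:57546062-57546361, minus strand: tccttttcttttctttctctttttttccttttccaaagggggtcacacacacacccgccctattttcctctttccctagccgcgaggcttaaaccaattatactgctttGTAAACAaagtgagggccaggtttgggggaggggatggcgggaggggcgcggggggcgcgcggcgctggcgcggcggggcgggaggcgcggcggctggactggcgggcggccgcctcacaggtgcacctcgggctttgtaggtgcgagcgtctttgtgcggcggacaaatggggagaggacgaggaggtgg
Pgr, chr9:8899583-8899882, plus strand: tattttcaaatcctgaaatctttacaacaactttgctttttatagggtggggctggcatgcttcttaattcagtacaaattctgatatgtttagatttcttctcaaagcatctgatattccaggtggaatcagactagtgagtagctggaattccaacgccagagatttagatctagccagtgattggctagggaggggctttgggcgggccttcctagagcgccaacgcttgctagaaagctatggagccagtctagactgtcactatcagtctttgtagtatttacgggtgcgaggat
Cited1, chrX:102252132-102252431, minus strand: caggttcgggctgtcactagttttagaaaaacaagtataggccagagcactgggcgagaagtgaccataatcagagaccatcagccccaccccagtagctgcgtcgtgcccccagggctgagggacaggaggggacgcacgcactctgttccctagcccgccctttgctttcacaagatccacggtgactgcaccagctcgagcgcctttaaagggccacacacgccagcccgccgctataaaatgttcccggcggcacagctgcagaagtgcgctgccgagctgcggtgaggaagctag
Wnt4, chr4:137277385-137277684, plus strand: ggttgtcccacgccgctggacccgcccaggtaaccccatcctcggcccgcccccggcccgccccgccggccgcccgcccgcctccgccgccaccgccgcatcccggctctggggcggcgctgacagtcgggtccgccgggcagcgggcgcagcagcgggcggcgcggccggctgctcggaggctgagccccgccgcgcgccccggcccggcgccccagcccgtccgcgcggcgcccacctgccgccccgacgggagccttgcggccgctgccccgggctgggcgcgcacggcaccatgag

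Both strands were searched for 5 motifs. The Foxa1 promoter held the forkhead letters TGTTTAC, read on the opposite strand from base 110 of the printed sequence. Those letters occur in 3.65% of all 32851 promoters of this length. No other match was found in the 11 promoters for the forkhead letters, the full estrogen response element palindrome (GGTCA, any 3 bases, TGACC; 0.07% of all promoters), the progesterone response element palindrome (GNACA, any 3 bases, TGTNC; 0.475%), the T-box letters AGGTGTGA (1.28%) or the GATA letters AGATAA (11.2%). A match is a description of letters and says nothing of binding, and the lack of one covers only these windows. The promoters differed in base composition. The GC content was 84.3% in Wnt4, 62.3% in Foxa1, 59.7% in Cited1 and 43.7% in Pgr.

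Tbx3 had the largest ratios of the 9 genes in pairs 2 and 3, and the opposite sign in pair 1. It was read from 1 probe (A_55_P1969002). On arrays A and B of pair 1, the raw median signal in the channel labeled RANK-/- was 391 and 390. Pair 2 gave 7161 and 6462, whereas pair 3 gave 2075 and 2045. The channel labeled RANK+/+ read 736 and 571, then 637 and 689, then 386.5 and 431. Local background of these spots stayed between 29 and 72 in all channels. The RANK-/- channels of pairs 2 and 3 thus stood above all RANK+/+ channels, whereas that of pair 1 lay below the RANK+/+ channel on the same arrays.

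After normalization the Tbx3 level was 8.57, 12.96 and 11.33 in RANK-/- and 9.68, 9.12 and 8.14 in RANK+/+ in pairs 1, 2 and 3, so the groups overlapped. The ratios were -1.11, 3.84 and 3.19, which is 2.16-fold lower in pair 1 and 14.3-fold and 9.14-fold higher in pairs 2 and 3. Over the pairs this averaged 1.97 ± 2.69 (SD, n = 3; SE 1.55). Arrays A and B of a pair differed far less, with a technical SD of 0.0906. Only Tbx3, of all 22498 genes tested (0.00444%), was at least 8-fold higher in both pair 2 and pair 3, a pattern that was looked for after its values were seen.

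Most of the variation of Tbx3 lay in the RANK-/- channel. Its levels spanned 4.39 log2 units there (SD 2.22), against 1.54 in the RANK+/+ channel (SD 0.78). A smaller SD over the RANK-/- channels was found in 99.96% of all genes tested, and a smaller SD over the RANK+/+ channels in 95.3%. Tbx3 was chosen by the ratios of these same channels, so its rank in spread is a description only. On all 6 arrays Tbx3 was lower in Cy5 than in Cy3, with log2 Cy5 over Cy3 of -1.11, -3.84 and -3.19 in pairs 1, 2 and 3. A change of sign between pair 1 and both other pairs was seen in 28.8% of genes, and pair 1 and its dye arrangement cannot be told apart. Given the same weight, the 2 dye arrangements averaged to a ratio of 1.20.

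Tbx2, which shares the DNA-binding T-box with Tbx3, differed most in pair 1. Its levels were 6.95, 6.86 and 7.15 in RANK-/- and 6.48, 6.95 and 7.26 in RANK+/+. The ratios were 0.46, -0.08 and -0.10 (mean 0.09 ± 0.32), and the groups overlapped. The size in pair 1 depended on the background correction of this dim probe, with 0.71 at a normexp offset of 16, 0.85 in the series table and 1.61 with Agilent's processed signals. The mean over pairs was 0.29 with processed signals. With median centring it was -0.02, beside a median of -0.14 over all genes tested.

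Esr1, the estrogen receptor alpha, was above 0 in all 3 pairs, by little. Levels were 7.04, 7.89 and 6.89 in RANK-/- and 6.97, 7.17 and 6.64 in RANK+/+. The groups overlapped, and the highest channel was RANK-/- of pair 2. The ratios were 0.07, 0.72 and 0.25 (mean 0.34 ± 0.34). This probe (A_52_P237077) is printed at 10 spots per array, of which 9 or 10 could be used. In pair 2 single spots ranged from 0.62 to 0.86 on array A and from 0.43 to 0.90 on array B, all above 0. In pair 1 they ranged from -0.16 to 0.19 and from -0.02 to 0.26, on both sides of 0. A dimmer Esr1 probe, which exceeded background on 3 arrays in RANK-/- and 6 in RANK+/+, gave -0.09, 0.35 and -0.11, and a further one was well above background on 0 arrays. With the mean over probes, the pair 1 ratio of Esr1 was -0.01. Its mean ranged from 0.16 to 0.48 without 1 pair, the lowest without pair 2, and was 0.63 with processed signals.

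Pgr, the progesterone receptor, differed in pair 2 alone. Its levels were 7.07, 6.26 and 6.75 in RANK-/- and 7.03, 8.46 and 6.85 in RANK+/+. The RANK+/+ channel of pair 2 stood above the 5 other channels. The ratios were 0.03, -2.20 and -0.11 (mean -0.76 ± 1.25), and without pair 2 the mean was -0.04. Pair 2 has no exact size, since 1 of the 6 RANK-/- channels was not well above background. Its ratio ran from -4.57 with Agilent's processed signals to -1.38 with the mean over probes, and the mean over pairs from -1.52 to -0.49. In pair 2 the raw signal in RANK-/- was 42 and 43 over a local background of 35 on both arrays, against 390.5 and 412 in RANK+/+. A second probe exceeded background on 6 of 6 arrays in RANK+/+ and on 0 of 6 in RANK-/-, and so passed the filter through RANK+/+ alone. No ratio of this second probe is given on its own, although it enters the mean over probes.

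Foxa1, the pioneer factor of the estrogen receptor, was below its RANK+/+ partner in every pair. Its levels were 9.67, 8.04 and 9.90 in RANK-/- and 10.63, 10.14 and 10.57 in RANK+/+. All RANK+/+ channels lay above all RANK-/- channels, and 3.82% of genes tested were lower in this way without overlap. The ratios were -0.97, -2.10 and -0.67, or 1.96-fold, 4.29-fold and 1.59-fold lower, with a mean of -1.24 ± 0.76. RANK+/+ channels stayed within 0.49 log2 units, and RANK-/- channels spanned 1.86. Because pair 1 had the other dye arrangement, Foxa1 was lower in Cy5 there and higher in Cy5 in pairs 2 and 3. The mean over dye arrangements was -1.17. Other background corrections, normalizations and signals, and single arrays, gave -1.08 to -0.75 in pair 1, -2.46 to -2.08 in pair 2 and -1.24 to -0.63 in pair 3. Without 1 pair its mean ranged from -1.53 to -0.82, the latter without pair 2.

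**Figure D1:**
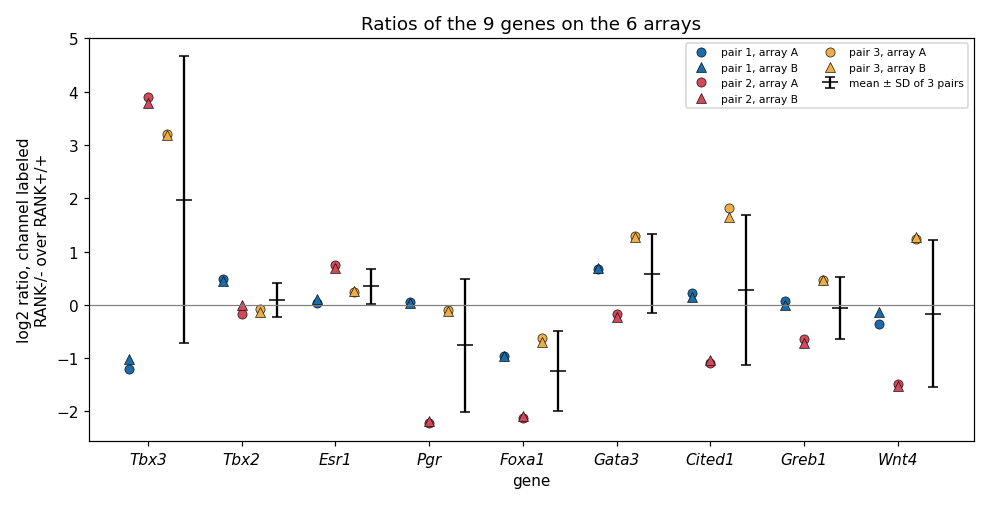
Log2 ratio of the channel labeled RANK-/- over that labeled RANK+/+ (vertical axis) for the 9 genes (horizontal axis), with circles for array A and triangles for array B of each pair and black bars for the mean ± SD of 3 pairs. Arrays of a pair lie close together, Tbx3 runs from -1.11 in pair 1 to 3.84 in pair 2, Foxa1 is below 0 in all pairs and Esr1 slightly above 0.

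Gata3, a transcription factor of luminal cells, was higher in pairs 1 and 3 and slightly lower in pair 2. Its levels were 13.20, 13.00 and 13.73 in RANK-/- and 12.53, 13.20 and 12.45 in RANK+/+. The groups overlapped through pair 2. The ratios were 0.68, -0.20 and 1.28 (mean 0.59 ± 0.75). The mean was 0.24 without pair 3, 0.98 without pair 2 and 0.29 with median centring.

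Cited1, the receptor coactivator, had opposite signs in pairs 2 and 3. Its levels were 11.16, 9.28 and 10.60 in RANK-/- and 10.97, 10.35 and 8.87 in RANK+/+. The 2 groups covered nearly the same range. The ratios were 0.18, -1.07 and 1.73 (mean 0.28 ± 1.40), and without pair 3 the mean turned to -0.44.

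Greb1, an estrogen-induced gene, had levels of 9.27, 8.47 and 8.30 in RANK-/- and 9.23, 9.15 and 7.85 in RANK+/+. The ratios were 0.04, -0.68 and 0.46 (mean -0.06 ± 0.58), with overlapping groups. A second probe gave 0.12, -0.03 and 0.21, so both probes were lowest in pair 2 and highest in pair 3. The mean was 0.02 over both probes and 0.25 without pair 2.

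Wnt4, a Wnt ligand secreted in response to progesterone, had levels of 8.27, 7.26 and 8.08 in RANK-/- and 8.52, 8.76 and 6.83 in RANK+/+. The ratios were -0.25, -1.51 and 1.25 (mean -0.17 ± 1.38), and the groups overlapped. Its second probe gave -0.15, -0.40 and 0.28, with the same signs. Without pair 2 the mean was 0.50.

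**Figure D2:**
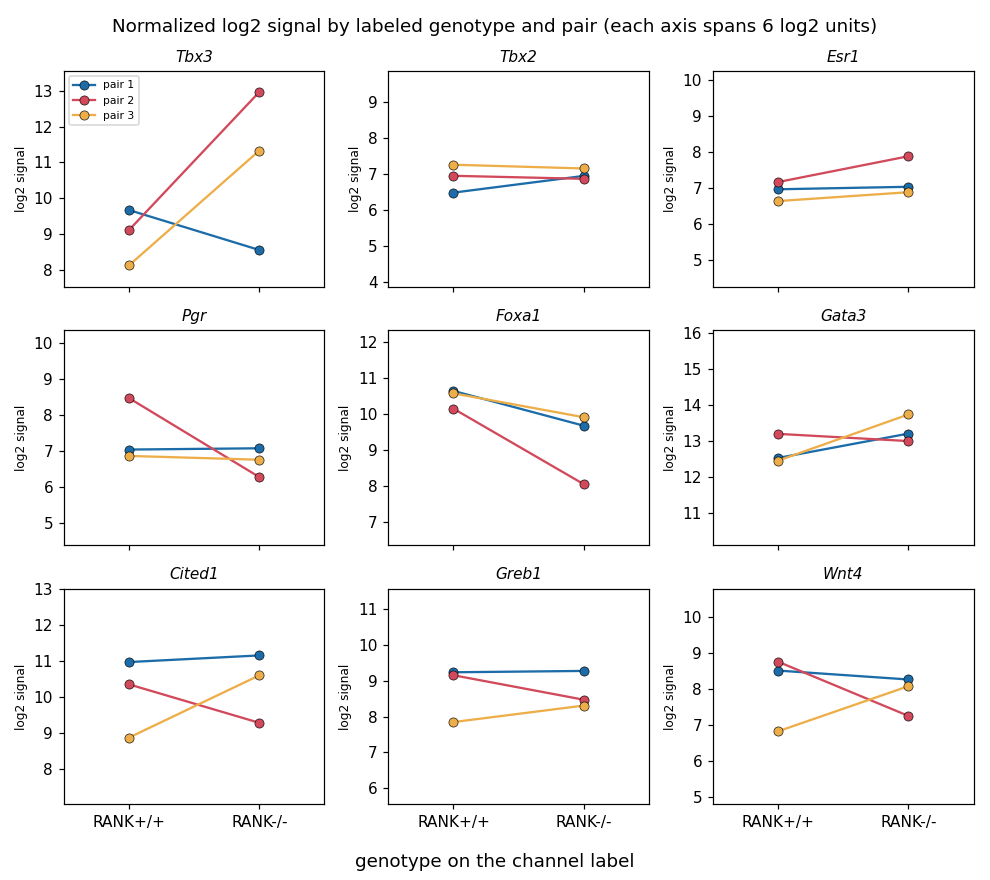
Normalized log2 signal (vertical axis, the same span in every panel) in the RANK+/+ and RANK-/- channels (horizontal axis) for each gene, with a line for each pair. Foxa1 falls from RANK+/+ to RANK-/- in all pairs without overlap, Tbx3 rises in pairs 2 and 3 and falls in pair 1, and Pgr differs in pair 2 alone.

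The 9 genes did not shift together. Limma called 0 of 22498 genes (0%) at an adjusted p under 0.05, and none of the 9. At an unadjusted p under 0.05 limma listed 647 genes (2.88%), among them Foxa1. The rank product, the test of the study's methods, called 22 genes (0.0978%) at a proportion of false positives (pfp) under 0.05, among them Tbx3 as one of 10 higher genes (0.0444%). That call follows pairs 2 and 3. The pfp of Tbx3 was 0.0165 with 3 pairs, 0.534 without pair 2 and 0.401 without pair 3. Without pair 1, the pair of opposite sign, it was 0, a value limited by the 500 draws. Tbx3 was chosen by this call, so these values describe how the call depends on pairs and are no support for it. Of the 9 genes, 1 was above 0 in all pairs (9.93% of all genes) and 1 below 0 in all pairs (9.65%). These counts come from the contrast that chose the genes and are given without a reading. The median ratio of the 9 genes was 0.04, -0.68 and 0.46 in pairs 1, 2 and 3, against 0.02, -0.01 and 0.00 over all genes tested.

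Cited1 and Wnt4 had the most similar ratios, at a Euclidean distance of 0.778 log2 units over the 3 pairs. Next came Greb1 and Tbx2 (0.925), Esr1 and Tbx2 (0.960) and Cited1 and Gata3 (1.09). Pgr was the gene nearest to Foxa1 (1.15). Tbx3 lay at least 4.45 from any of the others, and farthest from Foxa1 (7.08). Wnt4, Cited1, Greb1 and Gata3 shared an order, with the lowest ratio in pair 2 and the highest in pair 3. In pair 2 the 2 largest ratios of the 9 genes were those of Tbx3 and Esr1, and 7 of the genes were below 0.

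Among 14671 other genes with a RefSeq symbol, those with ratios closest to Tbx3 over the 3 pairs were Cxcl9, Tgtp2, Cxcl10, Igtp and Kng1. Cxcl9 and Cxcl10 encode chemokines, Tgtp2 and Igtp encode GTPases, and Kng1 encodes kininogen. Cxcl9 had ratios of -1.67, 3.15 and 2.54, at a distance of 1.10. The distances of the others were 1.22 for Tgtp2, 1.53 for Cxcl10, 1.73 for Igtp and 1.76 for Kng1. Those closest to Foxa1 were Arpin (0.206), Fgfr3 (0.245) and Slc26a9 (0.424). Fgfr3, a fibroblast growth factor receptor, had ratios of -0.83, -2.04 and -0.86.

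Other markers of hormone-sensing luminal cells were read from a list of 10 genes, of which 10 were tested and 0 called by limma. Their median ratio was 0.31, -0.24 and 1.12 in pairs 1, 2 and 3, the same order over pairs as in Gata3 and Cited1. Above 0 in all pairs were 3 genes, Ly6a, Wnt5a and Aqp5, and 1 gene, Batf, was below. Wnt5a, a noncanonical Wnt ligand, had the highest mean (0.34, 0.78 and 1.16; mean 0.76 ± 0.41). The lowest mean was that of Areg, which encodes amphiregulin (0.00, -2.09 and 0.26; mean -0.61 ± 1.29). Areg thus stood apart in pair 2 in the way Pgr did. Prlr, the prolactin receptor, had ratios of 0.67, -0.88 and 1.43.

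Of 15 estrogen-responsive genes 12 were tested, with 0 called by limma. The medians were -0.03, -0.34 and 0.27, and 6 genes had a mean above 0 and 6 below. None was above 0 in all pairs, and 1 was below, Myb, a transcription factor of proliferating cells (-0.47, -1.18 and -0.89; mean -0.85 ± 0.35). The highest mean was that of Ctsd, the protease cathepsin D (0.63 ± 0.66). Tff1, Tff3 and Susd3 were not tested, since they were well above background on 2 arrays at most in either channel.

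Genes of the paracrine response to progesterone formed a short list. Of 7 genes 6 were tested, 0 were called by limma and 0 had the same sign in all pairs. Tnfsf11, which encodes RANK ligand, exceeded background on 4 arrays in RANK-/- and on 1 in RANK+/+. It passed the filter through RANK-/- alone, and no ratio is given. Rspo1, a secreted enhancer of Wnt signaling, had the lowest mean (-2.30, 0.96 and -2.38; mean -1.24 ± 1.91). Cxcl12, a chemokine, had the highest (-1.46, 0.82 and 2.07; mean 0.47 ± 1.79). Id4, an inhibitor of DNA binding, was at -0.76, 0.67 and -2.26.

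Receptor cofactors and partners varied less. All 12 were tested, with 0 called, and their medians were -0.01, 0.18 and 0.25. Ncoa1, Ncoa2 and Lmo4 made up the 3 genes above 0 in all pairs, and 0 were below. Lmo4, a LIM-only adaptor, had the highest mean (1.78, 0.37 and 0.20; mean 0.78 ± 0.87). Nrip1, a corepressor of nuclear receptors, had the lowest (-0.46, -0.62 and 0.65; mean -0.14 ± 0.69). Median centring lowered the median of all genes tested to -0.14, and relative to that shift the cofactors stayed higher (-0.06).

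Other T-box genes showed nothing of the size seen in Tbx3. Of 15 genes 7 were tested, 0 were called, and the medians were -0.05, -0.12 and 0.08. Tbx15 had the highest mean (1.67, -0.39 and 0.41; mean 0.56 ± 1.04). Mga, a protein with a T-box and a basic helix-loop-helix domain, had the lowest (-0.18, -0.19 and -0.65; mean -0.34 ± 0.27). Of 11 relatives of the other regulators 8 were tested and 0 called. Esr2, the estrogen receptor beta, was at 0.02 ± 0.08. Cited2, a paralog of Cited1, had the highest mean and the same signs as Cited1 (0.81, -1.21 and 1.54, mean 0.38 ± 1.43). Gata2 had the lowest mean (-0.30 ± 0.91).

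Of 18 other Wnt ligands 10 were tested and 0 called. Wnt5a, given above, was the 1 ligand above 0 in all pairs. Wnt6 was the 1 below (-2.80, -0.61 and -0.80; mean -1.40 ± 1.21). Wnt10a had ratios of -2.68, -1.86 and 0.82. The medians of the ligands were -0.01, -0.16 and 0.12.

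Genes known to be repressed by T-box factors were read beside Tbx3. Cdkn2a, which encodes the cell cycle inhibitors p16 and p19, had ratios of -0.05, 2.48 and -2.73. It thus had opposite signs in pairs 2 and 3, where Tbx3 was high in both. Cdkn1a, which encodes the inhibitor p21, was above 0 in all pairs (1.08, 1.07 and 0.23, mean 0.79 ± 0.49). Cdh1, or E-cadherin, was at 0.27, -0.47 and -0.15. All 4 genes of this list were tested, and 0 were called.

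The cells other than hormone-sensing luminal cells were read from marker lists. The array RNA is bulk RNA, in which fewer cells of a type and less RNA per cell cannot be told apart. All 7 luminal epithelium markers were tested, with medians of 0.27, -0.55 and 0.52. Krt8, a luminal keratin, had the highest mean, with ratios of -0.41, -0.55 and 2.08. The keratin Krt18 had ratios of 0.45, -1.34 and 1.65, and Krt19, with the lowest mean, of -1.22, -3.95 and 0.03. Cldn7 alone in this list was not lowest in pair 2 (-0.42, 0.48 and 0.93). All 7 luminal progenitor markers were tested too, with medians of 0.73, -0.72 and 0.86. Both lists thus had their lowest median in pair 2, the pair in which Foxa1, Pgr, Gata3, Cited1, Greb1 and Wnt4 were lowest. This was not limited to luminal lists. The basal (-0.02), endothelial (-0.18), estrogen-responsive (-0.34), other T-box (-0.12), relatives (-0.02) and other Wnt (-0.16) lists were also lowest in pair 2. The progesterone, cofactor, T-box target, leukocyte and fibroblast lists were not. With median centring the median of the gene means went from 0.26 to -0.20 for luminal epithelium and from 0.35 to -0.11 for luminal progenitors. That setting lowered the median over all genes tested to -0.14. Summed over the luminal epithelium list, normalized linear signals ranged from 163036 to 467316 in RANK-/- and from 192885 to 298094 in RANK+/+. The part of luminal content in the values of the 9 genes was not tested.

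Basal myoepithelial markers had medians of 0.28, -0.02 and 0.08, with all 7 tested. The direction of this list turned with the mean over probes and without pair 1. The median of its gene means was 0.14, and it was -0.32 with the mean over probes and -0.16 without pair 1. With median centring it was -0.10, beside a median of -0.14 over all genes tested. Their summed signal ranged from 22780 to 25806 in RANK-/- and from 25243 to 42769 in RANK+/+. Fibroblast markers had their higher medians in pairs 2 and 3, in which Tbx3 was high. All 8 were tested and exceeded background on 6 of 6 arrays in both channels, all 8 had a mean above 0, and their medians were 0.08, 0.85 and 1.97. Their summed signal was 161008, 139789 and 225231 in RANK-/- and 143024, 78571 and 47798 in RANK+/+ in pairs 1, 2 and 3. Pair 3 had the larger fibroblast difference and pair 2 the larger Tbx3 difference. The part of fibroblasts in the values of Tbx3 was not tested. With median centring the median of the fibroblast gene means went from 0.97 to 0.65, and the mean of Tbx3 from 1.97 to 1.76.

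Leukocytes were depleted by the sort. Of 9 leukocyte markers 7 were tested, with medians of -0.28, 0.10 and 0.03. Ptprc, which encodes CD45 itself, was well above background on 5 arrays in RANK-/- and 4 in RANK+/+. Cd8a was above it on 0 arrays in RANK-/- and 2 in RANK+/+. The summed signal ranged from 8450 to 10765 in RANK-/- and from 8128 to 28075 in RANK+/+, the highest being pair 1. S100a8, a neutrophil calprotectin subunit, was at -3.99 in that pair. All 6 endothelial markers were tested, with medians of -0.01, -0.18 and 0.53, and summed signals of 3251 to 3820 and of 2582 to 3639.

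**Figure D3:**
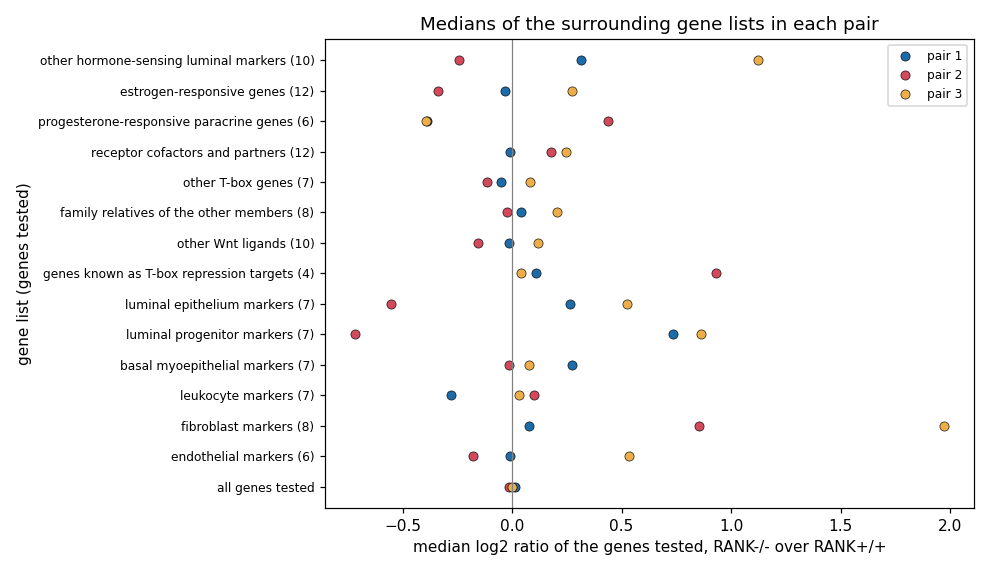
Median log2 ratio of RANK-/- over RANK+/+ (horizontal axis) of the tested genes of each list (vertical axis, number tested in brackets), with a point for each pair. Hormone-sensing, luminal epithelium and luminal progenitor lists have their lowest median in pair 2. So do the estrogen-responsive, other T-box, relatives, other Wnt, basal and endothelial lists. Fibroblast markers reach 0.85 in pair 2 and 1.97 in pair 3, and the medians over all genes lie within 0.02 of 0.

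**Figure D4:**
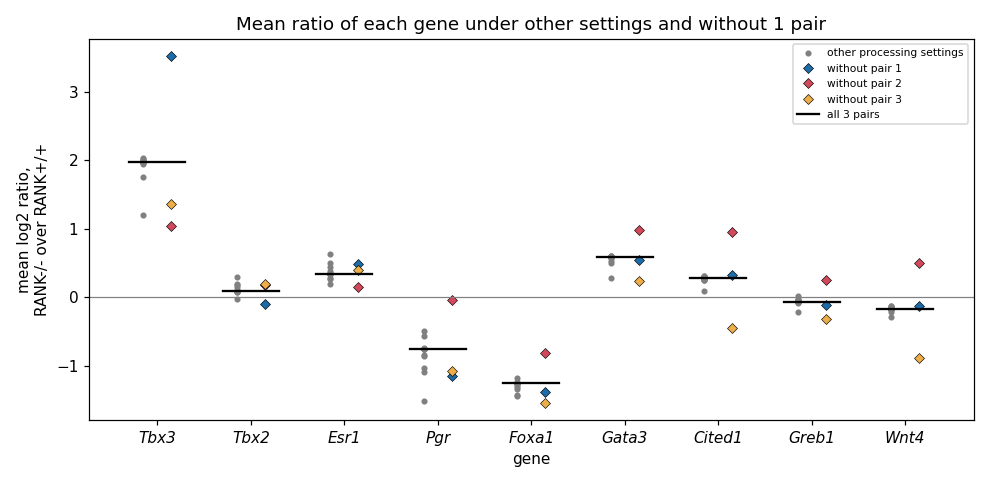
Mean log2 ratio (vertical axis) of the 9 genes (horizontal axis) with all 3 pairs (black lines), under other processing settings (grey points) and without 1 pair (diamonds). Tbx3 rises to 3.52 without pair 1, Foxa1 stays between -1.53 and -0.82, and Cited1, Greb1, Tbx2 and Wnt4 lie on both sides of 0.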

How the data were processed

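RNA of 3 pairs was measured on 6 SurePrint G3 Mouse two-color arrays, which the authors extracted with Agilent Feature Extraction 10.7.3.1. These deposited files hold median spot intensity and local background intensity per channel without normalization, beside processed intensity values. Their flags for spots above background or outlying were used as deposited. A deposited table for the series gives the authors' normalized log2 ratios with no stated direction. Set against scanner ratios, all its arrays read as RANK-/- over RANK+/+ (r from 0.825 to 0.858; column medians from -0.00800 to 0.00404). It served as an alternative. All its columns were matched.

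Median intensities were background-corrected (normexp, offset 50), normalized by loess within and Aquantile between arrays with limma 3.58.1 in R 4.3.3 and data.table (version 1.17.8), and averaged over spots and over arrays A and B. No slide or date differed in a way that could be tested. Probes were kept (30221) if, in the channels of one genotype, both arrays exceeded background in 2 or more pairs, and the brightest probe stood for a gene. In all, 28026 gene probes matched a RefSeq symbol (GRCm38.p6); array coordinates (mm9) were not used. Limma (intercept only, Benjamini-Hochberg over all genes) and the rank product (500 draws) were run on 3 pair ratios and tested on simulated data. Lists were described by counts and medians; a few of their genes are not reported here. All 9 genes, every gene of the lists at need, and the 5 and 3 genes nearest to Tbx3 and Foxa1 were named. The members and lists were chosen with earlier results of these data known. The number of arrays limits the precision. In all, 17 alternatives were tried. Per the labels, dyes were not swapped between arrays A and B, although the methods describe dye swaps.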

Additional observations from a re-analysis of the deposited data

How the results depend on the processing

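Limma called 0 genes under all settings with 1 value per pair, including each pair left out (0 to 0). With the pair as a random block over the 6 arrays (replicate block), it called 13 genes and 1365 at an unadjusted p under 0.05, and none of the 9. With no replicate block it called 0 (830 unadjusted). Across genes, channels sharing a pair number did not deviate together from their group means (r -0.0335, -0.218 and -0.0411). These values do not show what a pair shares beyond its arrays. The rank product called 35 genes with no filter on dim probes, which covers more genes, and 2 to 22 without 1 pair. Median centring turned Tbx2 (-0.019) and moved the medians of cofactors (-0.063), relatives (-0.066) and basal markers (-0.096), beside a median of -0.14 over all genes. The mean over probes turned Greb1 (0.019) and moved basal markers (-0.32). Without 1 pair the mean of Tbx2 ranged from -0.094 to 0.19, of Greb1 from -0.32 to 0.25, of Wnt4 from -0.88 to 0.50, of Cited1 from -0.44 to 0.96, of Tbx3 from 1.04 to 3.52, of Gata3 from 0.24 to 0.98, of Esr1 from 0.16 to 0.48, of Pgr from -1.15 to -0.035, of the basal median from -0.16 to 0.22 and of the T-box target median from -0.047 to 0.54. The cause was not tested. Pgr was not tested under the strictest filter, so it has 16 alternatives. Agilent's processed signals moved the dim probes of Tbx2 (pair 1, from 0.46 to 1.61) and Pgr (pair 2, from -2.20 to -4.57).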
